A study of Mus musculus with 36 samples.

Results

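Of 36 two-colour arrays of mouse lung RNA, 12 carried skeletal muscle transcripts and 24 did not. The arrays were selected on the log2 Cy5 intensity of the Acta1 probe of highest mean signal: over 10 for the muscle arrays, 10 or less for the other arrays. The 12 muscle arrays came from 11 mice and the 24 other arrays from 19 mice. A single mouse, replicate 1 of the day 1 controls, had an array in each set, so there were 29 mice in all. Acta1 lay between 13.51 and 17.94 on the muscle arrays (median 16.61) and between 6.49 and 7.195 on the other arrays (median 6.68). No array lay near the threshold, and these values describe how the sets were chosen.

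All mice were female C57BL/6, 5 to 7 weeks old, and received a single intratracheal instillation of 40 µl. The doses of TiO2 Tube, a tube-shaped titanium dioxide nanoparticle, were 18, 54 and 162 µg per animal, set against 0 µg controls, and lungs were collected at day 1 or day 28. The Cy5 channel holds the lung sample, and the Cy3 channel a common reference pooled from 11 cell lines. Per the labels, liver and heart were removed from the same animals, and RNA was extracted from random sections of lung. The comparison of muscle arrays with other arrays cuts across dose and time, and what it gives is an association with the Acta1 level, not an effect of treatment.

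Skeletal muscle fibres contract through sarcomeres, repeats of actin and myosin filaments held together by titin, nebulin and alpha-actinin. ACTA1 is the skeletal muscle actin, and CKM, the muscle creatine kinase, regenerates ATP from phosphocreatine. Fast and slow fibres differ in their myosin heavy chains, troponins and calcium pumps. Lung parenchyma is built of alveolar epithelium, capillary endothelium, fibroblasts and immune cells, and skeletal muscle is not among its tissues.

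The sequences upstream of 4 genes that differ between the sets are shown because muscle genes are known to share short motifs, the E-box bound by MyoD family factors and the CArG box bound by serum response factor. Each is the 250 bases before the start site, from RefSeq (GRCm38.p6, the assembly named in its gene table), 5′ to 3′ on the strand of the gene. Capitals mark CAGCTG, an E-box that reads the same on both strands, and the CArG box. The motifs do not overlap each other.
Acta1, chr8:123894776-123895025, minus strand: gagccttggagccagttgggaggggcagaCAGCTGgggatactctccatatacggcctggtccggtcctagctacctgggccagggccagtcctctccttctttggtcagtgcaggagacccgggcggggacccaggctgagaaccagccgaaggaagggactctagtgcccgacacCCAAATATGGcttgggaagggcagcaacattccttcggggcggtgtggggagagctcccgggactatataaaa
Ckm, chr7:19410844-19411093, plus strand: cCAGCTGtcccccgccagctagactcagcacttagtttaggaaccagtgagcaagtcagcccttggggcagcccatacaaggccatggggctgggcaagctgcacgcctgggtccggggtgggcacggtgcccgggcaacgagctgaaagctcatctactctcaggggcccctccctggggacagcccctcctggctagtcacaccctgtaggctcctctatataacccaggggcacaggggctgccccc
Myh4, chr11:67237562-67237811, plus strand: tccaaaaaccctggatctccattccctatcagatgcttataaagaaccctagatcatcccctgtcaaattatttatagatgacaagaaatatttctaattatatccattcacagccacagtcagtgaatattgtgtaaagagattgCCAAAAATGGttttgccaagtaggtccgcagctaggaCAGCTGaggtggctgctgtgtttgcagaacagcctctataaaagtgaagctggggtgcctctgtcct
Krt13, chr11:100121567-100121816, minus strand: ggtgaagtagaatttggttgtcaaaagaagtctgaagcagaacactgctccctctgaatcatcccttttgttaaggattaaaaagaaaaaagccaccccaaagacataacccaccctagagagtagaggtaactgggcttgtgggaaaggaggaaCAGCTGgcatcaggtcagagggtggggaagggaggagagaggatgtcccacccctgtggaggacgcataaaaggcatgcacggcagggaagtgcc
CAGCTG was present in 22 of 55 promoters of skeletal muscle list genes (40.0%), 3 of 24 of alveolar and endothelial list genes (12.5%) and 3450 of 27025 of all genes (12.8%). A CArG box was present in 4 of 55 (7.3%), 2 of 24 (8.3%) and 378 of 27025 (1.4%). Krt13, a keratin of squamous epithelium, holds CAGCTG as well. A match of letters is a description of these windows and not a measured binding site.

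Skeletal muscle transcripts separated the sets without overlap for many genes. Ckm lay between 10.24 and 15.93 log2 Cy5 on muscle arrays (median 13.42) and between 6.23 and 8.87 on other arrays (median 6.79). Tnnt3, the fast skeletal troponin T, lay between 11.93 and 17.28 on muscle arrays and between 6.74 and 8.39 on other arrays. Myh8, the perinatal myosin heavy chain, lay between 13.40 and 17.80 on muscle arrays and between 6.52 and 8.81 on other arrays. The lowest muscle array was above the highest other array for each of these genes.

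**Figure D1:**
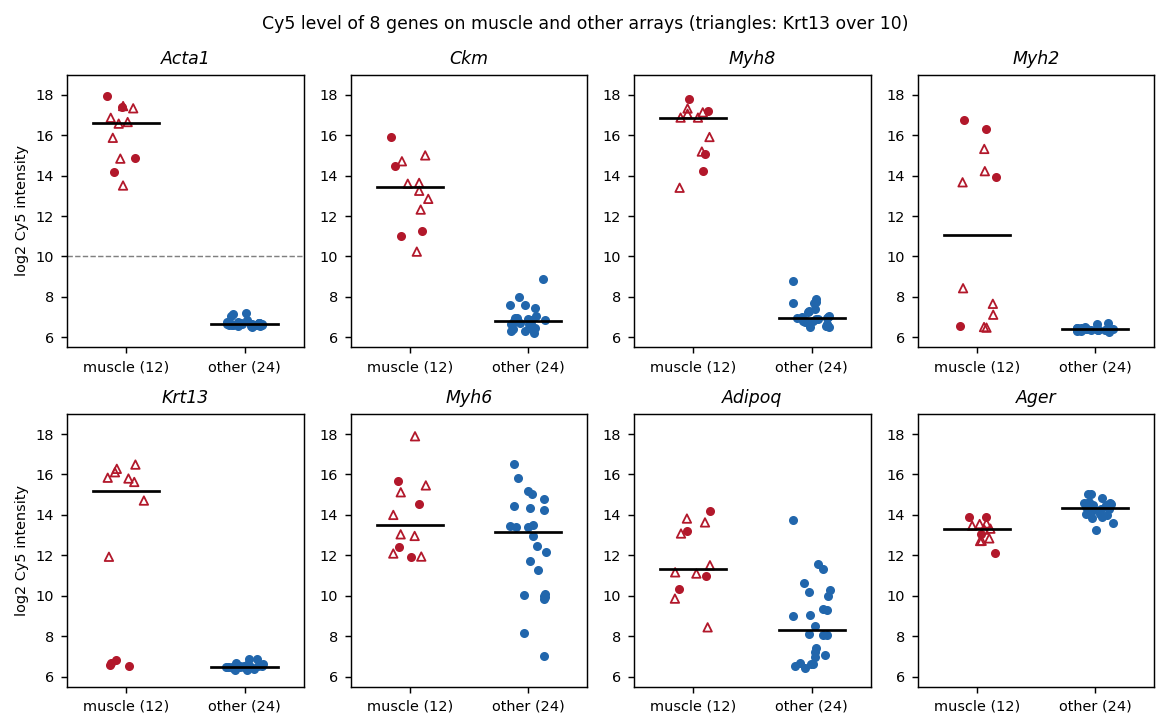
Log2 Cy5 intensity of 8 genes, with the 12 muscle arrays left and the 24 other arrays right in each panel; points are arrays, triangles are arrays with Krt13 over 10, black lines are medians and the dashed line is the Acta1 threshold. Acta1, Ckm and Myh8 do not overlap between the sets, Myh2 and Krt13 are high on only some muscle arrays, and Ager is lower on muscle arrays (median 13.29 against 14.34).

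Below, a difference is log2(Cy5/Cy3) on muscle arrays minus other arrays, with its standard error, from a limma model with a mean for each dose and day group and the mouse as a random block (12 and 24 arrays). The skeletal muscle lists vary with the gene that chose the arrays, so they are described without p-values. The 6 lists held 78 genes, of which 75 were well above background in Cy5 on at least 8 arrays and were fitted. That filter can be passed through the muscle arrays alone, so these counts support nothing by themselves. The median difference was 4.76 for 14 fast fibre genes, 3.76 for 15 genes of muscle metabolism, 3.48 for 21 sarcomere genes, 3.26 for 8 slow fibre genes, 2.69 for 11 excitation genes and 0.83 for 6 regulators, beside -0.03 over all 24722 genes. Of the 75, 32 were higher on every muscle array than on any other array, beside 0.328% of all genes. Acta1, whose separation was fixed by the choice of arrays, is counted among the 21 sarcomere genes, the 75 and the 32. In the opposite direction the share of all genes was 0%.

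Titin (Ttn, the molecular spring of the sarcomere) was 5.74 ± 0.50 higher on muscle arrays and nebulin (Neb, which spans the thin filament) 4.96 ± 0.40 higher. Myoz1, a Z-disc protein of fast fibres, was 5.74 ± 0.29 higher, with log ratios of 2.92 to 6.31 on muscle arrays and -0.81 to 0.03 on other arrays. Myot, the Z-disc protein myotilin, was not well above background on any other array, with log ratios of 1.84 to 7.86 on muscle arrays and -0.42 to 0.14 on other arrays. Ttn, Tcap, Actn2 and Cmya5, which heart muscle also expresses, overlapped between the sets.

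The fast fibre genes were the most separated, with 12 of 14 free of overlap. Tnni2 and Tnnc2, fast skeletal troponins I and C, were 7.60 ± 0.31 and 7.19 ± 0.15 higher, and Myl1, a fast myosin light chain, 7.82 ± 0.53 higher. Myh1, the IIX heavy chain, lay between 10.75 and 16.78 log2 Cy5 on muscle arrays and between 6.21 and 6.65 on other arrays, of which none was well above background. Myh4, the IIB heavy chain, lay between 7.35 and 13.18 on muscle arrays and between 6.15 and 6.77 on other arrays. Mylpf, the fast regulatory light chain, differed by 0.12 ± 0.06 with overlapping values. Its probe did not exceed 7.2 log2 Cy5 on any array, against 17.96 for Tnni2, so at this low signal a difference may be missed. Myh2 was the other fast fibre gene that overlapped. Myh1, Myh2, Myh4 and Myh8 are neighbouring genes of similar sequence, and cross-hybridisation between their probes was not tested.

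Fibre type varied within the muscle set. Myh2, the IIA heavy chain, lay between 6.48 and 16.74 log2 Cy5 on muscle arrays and between 6.27 and 6.70 on other arrays. It was over 10 on 6 of 12 muscle arrays and 0 of 24 other arrays. Those 6 arrays were also the 6 muscle arrays highest in Tnnt1, the slow skeletal troponin T, and in Myh7, the slow and cardiac heavy chain. Tnnt1 lay between 8.83 and 16.18 on muscle arrays and between 8.70 and 10.12 on other arrays. Myh7 lay between 10.41 and 16.67 on muscle arrays and between 9.86 and 12.44 on other arrays. Myh7 thus overlapped widely, whereas Mybpc1, a myosin-binding protein of slow fibres, was 5.91 ± 0.41 higher with no overlap.

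Genes of excitation and energy supply were also higher. Jsrp1, of the junction between T-tubule and sarcoplasmic reticulum, was 5.48 ± 0.32 higher, Cacna1s, the voltage sensor, 4.14 ± 0.41 and Ryr1, the calcium release channel, 3.88 ± 0.39. Pgam2 and Eno3, muscle forms of glycolytic enzymes, were 5.82 ± 0.50 and 4.24 ± 0.34 higher. Mb, the oxygen-binding myoglobin, overlapped, with 12.41 to 17.58 log2 Cy5 on muscle arrays and 6.38 to 13.34 on other arrays. Among regulators, Myf6, a myogenic factor of mature fibres, was 3.07 ± 0.30 higher. Pax7, which marks muscle stem cells, differed by 0.14 ± 0.08, but its probe did not exceed 7.06 log2 Cy5 on any array, so a difference may be missed.

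Across the 12 muscle arrays, many genes followed the Acta1 level. Outside the striated muscle lists, those that followed it most closely in log2 Cy5 included Myh8 (Pearson r = 0.99), Tpm2 and Klhl40 (0.986), Cavin4 (0.985), Tbx15 (0.983), Smtnl1 (0.98) and Myom3 (0.979). The median r of 74 skeletal list genes was 0.90, with a range of 0.008 to 0.995. These are descriptions over 12 arrays, of which 2 share a mouse.

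Transcripts of stratified squamous epithelium were present on part of the muscle set. Krt13, a keratin of moist squamous linings such as the oesophagus, lay between 11.93 and 16.49 log2 Cy5 on 8 muscle arrays and between 6.52 and 6.82 on the other 4 muscle arrays. It lay between 6.34 and 6.86 on the other 24 arrays. Acta1 had a median of 16.61 on the 8 muscle arrays with Krt13 over 10 and of 16.15 on the 4 without, which include the array with the highest Acta1.

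The squamous list had 13 of 19 members fitted, with a median difference of 2.60, and is described without p-values. Krt4, the partner keratin of Krt13, lay between 9.77 and 14.67 log2 Cy5 on the 8 muscle arrays with Krt13 over 10 and between 6.11 and 6.75 on the other 4 muscle arrays. It lay between 6.18 and 6.63 on the other 24 arrays, of which none was well above background. Sprr3, a cornified envelope protein, was well above background on 8 muscle arrays and 0 other arrays. Lor (loricrin) and Sprr1a, also of the cornified envelope, were 3.50 ± 0.80 and 3.04 ± 0.67 higher. Krt5 and Krt14, keratins of basal cells, were 2.06 ± 0.47 and 2.60 ± 0.50 higher, whereas Trp63, a transcription factor of basal cells, differed by -0.21 ± 0.10. Without the 8 arrays with Krt13 over 10, the median was 0.09 for the squamous list and 3.70 and 4.75 for the sarcomere and fast fibre lists. Krt13, which chose the arrays left out, is a member of the squamous list.

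Heart muscle transcripts varied widely in both sets. Myh6, the cardiac alpha heavy chain, lay between 11.94 and 17.89 log2 Cy5 on muscle arrays and between 7.00 and 16.53 on other arrays. Nppa, the atrial natriuretic peptide, was over 10 on 6 of 12 muscle arrays and 8 of 24 other arrays. The highest Myh6 and Nppa (17.86) were on the muscle array of replicate 3 of 54 µg at day 28. The cardiac list had a median difference of 0.86 over 10 genes, and its members overlapped between the sets.

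The remaining lists were tested, with a call at a limma adjusted p under 0.05. Over all 24722 genes, 2923 (11.8%) were called higher and 3177 (12.9%) lower on muscle arrays. The list counts below are to be read beside these shares. Of the called genes, 865 were higher and 2 lower by at least 2-fold. Since the arrays were chosen by a transcript level, the calls describe what varied with it.

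Fat transcripts rose, with 7 of 9 adipose genes called higher and 0 lower, at a median of 2.74. Adipoq, the adipocyte hormone adiponectin, lay between 8.44 and 14.18 log2 Cy5 on muscle arrays (median 11.34) and between 6.43 and 13.76 on other arrays (median 8.31), and its log ratio rose by 3.60 ± 0.77 (adjusted p = 0.00069). Fabp4, a fatty acid carrier, rose by 3.69 ± 0.70 and Cfd, adipsin, by 3.69 ± 0.80. The sets overlapped for these genes, since some other arrays were also high. Ucp1, the uncoupling protein of brown fat, was over 10 on 4 of 12 muscle arrays and 2 of 24 other arrays and did not pass the test (1.69 ± 0.91, adjusted p = 0.19).

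Genes of fatty acid and triglyceride synthesis had 9 of 12 called higher, at a median of 1.01. Dgat2, which makes triglyceride, rose by 3.29 ± 0.47 and Thrsp, a regulator of lipogenesis, by 2.71 ± 0.53. Fasn, the fatty acid synthase, rose by 0.92 ± 0.34 (adjusted p = 0.044) and was not called on Cy5 alone (0.85, adjusted p = 0.08). With slide as a term, 5 of the 12 synthesis genes were called, and the share over all genes in that fit is not given here. Without the arrays with squamous transcripts, 1 of 9 adipose genes was called at a median of 2.48, and 3 of 12 synthesis genes at a median of 0.80. Over all genes, 1834 of 24722 were called higher in that setting. Within the 18 µg group of day 28, which has 1 muscle array, the adipose median was -0.15 and the synthesis median -0.65.

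Mitochondrial genes rose, with 16 of 16 called higher at a median of 1.04. Cox5a, a subunit of cytochrome oxidase, rose by 1.47 ± 0.21, Sdhb, of complex II, by 1.29 ± 0.23, Idh3a, of the citric acid cycle, by 1.27 ± 0.20 and Acadm, of fatty acid oxidation, by 1.27 ± 0.21. The values of the sets overlapped for each of these. The median lay between 0.30 and 1.94 within the 6 dose and day groups that hold both sets. Each of these groups has only 1 array in 1 of the sets, so each within-group difference rests on that array. Without the arrays with squamous transcripts 16 of 16 were again called higher, at a median of 1.40, beside 1834 of all 24722 genes.

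Transcripts of alveolar type I cells, the thin cells of gas exchange, fell, with 7 of 9 called lower and 0 higher at a median of -0.71. Igfbp2 fell by 1.20 ± 0.20 on the log2 scale, Emp2 by 0.89 ± 0.14, Pdpn (podoplanin) by 0.77 ± 0.13 and Aqp5, a water channel, by 0.72 ± 0.15. The median was below 0 in 6 of 6 groups, between -0.79 and -0.44, each with only 1 array on 1 side of the difference. In bulk RNA, fewer cells of a type and less RNA per cell cannot be told apart, and whether either applied was not tested. Levels here are relative to the other transcripts on the array. Endothelial, NK cell and type II medians were below 0 too (-0.47, -0.47 and -0.36). Without the arrays with squamous transcripts, 5 of 9 were called lower at a median of -0.58, beside 1056 of all 24722 genes.

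Endothelial transcripts fell in 9 of 14 genes and rose in 0, at a median of -0.47. Calcrl, an adrenomedullin receptor, fell by 0.96 ± 0.18, Tmem100 by 0.95 ± 0.14, Tek, the angiopoietin receptor, by 0.87 ± 0.15 and Pecam1, a junction molecule, by 0.68 ± 0.13. Pecam1 lay between 8.77 and 10.34 log2 Cy5 on muscle arrays (median 9.92) and between 9.89 and 11.48 on other arrays (median 10.75). The list median was below 0 in 6 of 6 groups, between -0.80 and -0.16, again with only 1 array on 1 side in each group. Without the arrays with squamous transcripts, 3 of 14 were called lower, at a median of -0.27, beside 1056 of all 24722 genes.

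The call depended on the scale for some bright lung genes. Ager, a receptor abundant in type I cells, lay between 12.11 and 13.89 log2 Cy5 on muscle arrays (median 13.29) and between 13.23 and 15.05 on other arrays (median 14.34). Its Cy3 median was 7.65 on muscle arrays and 8.24 on other arrays. The log ratio of Ager differed by -0.25 ± 0.11 (adjusted p = 0.12), while on Cy5 alone, scaled to the 75th percentile of each array, it fell by 0.96 (adjusted p = 5.9e-06). Cldn5, a tight junction protein of endothelium, differed by -0.20 ± 0.11 in log ratio (adjusted p = 0.19) and fell by 0.92 on Cy5 alone (adjusted p = 0.000155). On Cy5 alone, 9 of 9 type I genes and 13 of 14 endothelial genes were called lower, beside 11.8% of all genes.

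Type II cells make surfactant, and 5 of 10 of their genes were called lower at a median of -0.36. Abca3, the lipid transporter of lamellar bodies, fell by 0.61 ± 0.11 and Napsa, a protease that processes surfactant protein B, by 0.57 ± 0.14. Sftpc, surfactant protein C, lay between 18.13 and 18.40 log2 Cy5 on muscle arrays and between 18.07 and 18.56 on other arrays and did not pass the test (-0.18 ± 0.17). Scgb1a1, the club cell secretoglobin, lay between 18.03 and 18.59 on muscle arrays and between 18.21 and 18.80 on other arrays, so these defining lung transcripts were bright in both sets. Without the arrays with squamous transcripts, 1 of 10 type II genes was called lower, beside 1056 of all 24722 genes. Of club cell genes 1 of 7 fell (Gsta3, -0.45 ± 0.12), near the 12.9% of all genes called lower. Of ciliated cell genes 0 of 9 were called at an adjusted p under 0.05.

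**Figure D2:**
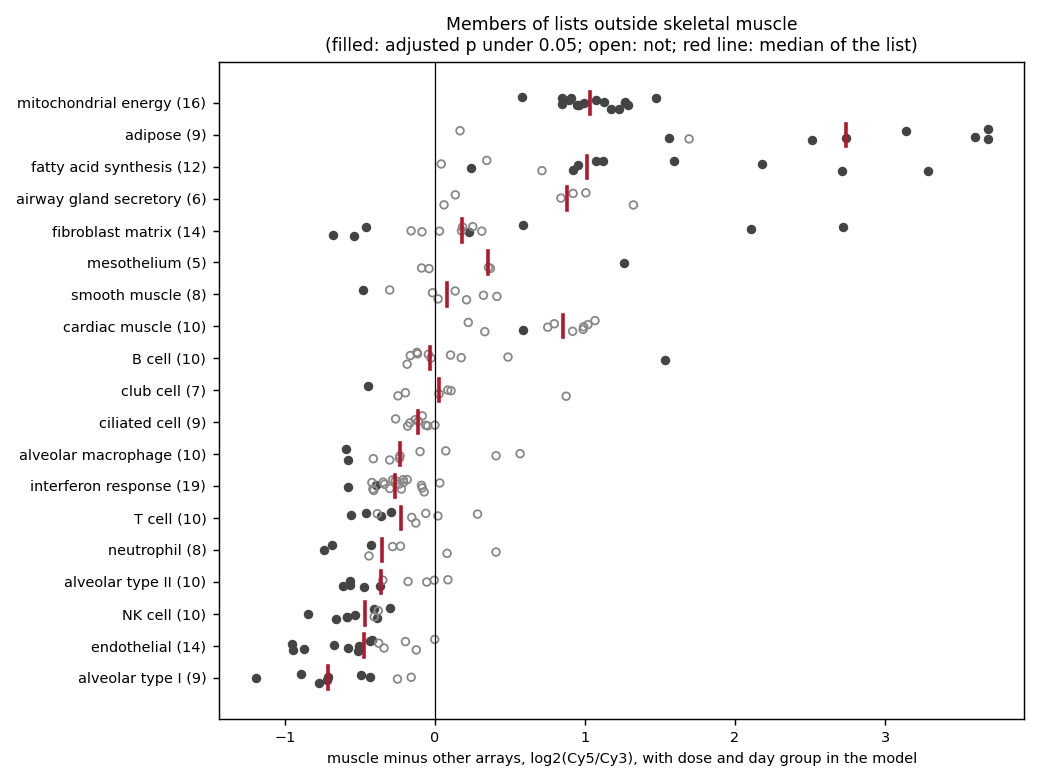
Difference in log2(Cy5/Cy3) of each member of the lists outside skeletal muscle, muscle arrays minus other arrays, with dose and day group in the model; filled points passed an adjusted p under 0.05, open points did not, and red lines are list medians. Mitochondrial, adipose and fatty acid synthesis medians lie above 0 (1.04, 2.74 and 1.01), and alveolar type I, endothelial and NK cell medians below it (-0.71, -0.47 and -0.47).

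Of 10 NK cell genes, 8 fell and 0 rose, at a median of -0.47. Gzma, a granzyme of cytotoxic lymphocytes, lay between 10.93 and 12.62 log2 Cy5 on muscle arrays and between 11.63 and 13.68 on other arrays, and its log ratio fell by 0.84 ± 0.18 (adjusted p = 0.00069). Without the arrays with squamous transcripts, 2 of 10 were called lower, at a median of -0.37, beside 1056 of all 24722 genes. T cell genes had 4 of 10 called lower and neutrophil genes 3 of 8, beside 12.9% of all genes. Counts for alveolar macrophage (2 of 10), interferon response (2 of 19) and acute phase genes (1 of 13) were near or below that share. Among B cell genes 1 of 10 was called, near the 11.8% of all genes called higher. It was Jchain, the joining chain of plasma cells, which rose by 1.53 ± 0.41. With slide as a term, 0 of 8 neutrophil, 2 of 10 T cell and 0 of 13 acute phase genes were called. The share over all genes in that fit is not given here. When the arrays with squamous transcripts were left out, 1 of 10 T cell genes was called, and 0 of the neutrophil, macrophage, interferon response, acute phase and B cell genes. Of all 24722 genes, 2890 were called in that setting.

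Connective tissue genes moved both ways, with 4 of 14 fibroblast and matrix genes called higher and 3 lower. Lum (lumican) rose by 2.72 ± 0.28 and Dcn (decorin) by 2.11 ± 0.26, both small proteoglycans that bind collagen. Sparc, a matrix glycoprotein, fell by 0.68 ± 0.12 and was not called on Cy5 alone (-0.19, adjusted p = 0.19). Of 8 smooth muscle genes, 1 was called, Tagln, which fell by 0.48 ± 0.15, a count near the 12.9% of all genes called lower. Of 8 peripheral nerve genes 3 rose and 3 fell, among them Sox10 of Schwann cells (0.48 ± 0.09) and the myelin gene Prx (-0.80 ± 0.12). Whether the Prx signal came from nerve was not tested. On Cy5 alone 0 of the 8 nerve genes were called higher and 3 lower, beside 9.8% and 11.8% of all genes. Sox10 was then at 0.34 (limma adjusted p = 0.18). Wt1, a mesothelial factor, rose by 1.26 ± 0.27 and was the called gene of 5, and Comp, a cartilage matrix protein, rose by 1.38 ± 0.31 and was the called gene of 3. Of smooth muscle, mesothelial and club cell genes, 0 of 8, 0 of 5 and 0 of 7 were called without the arrays with squamous transcripts. Of all 24722 genes, 2890 were called in that setting.

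Among housekeeping genes, Actb, the cytoplasmic actin, fell by 0.61 ± 0.13 in log ratio but differed by -0.13 on Cy5 alone (adjusted p = 0.34). Gapdh, of glycolysis, rose by 0.59 ± 0.15 in log ratio and by 0.65 on Cy5 alone.

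Outside all lists, genes were ranked if called, named by a symbol and changed in 1 direction in the 6 groups that hold both sets. Among these, the largest differences upward were Myh8 (7.03 ± 0.26) and Rpl3l, a ribosomal protein of striated muscle (4.56 ± 0.36). Next were Nmrk2, a nicotinamide riboside kinase of muscle (4.21 ± 0.40), and Hspb6, a small heat shock protein (4.17 ± 0.35). Myom2, Hrc, Txlnb and Cavin4 followed. The largest downward were Disp2 (-1.02 ± 0.17), Edn1, endothelin (-0.99 ± 0.20), Lrat (-0.98 ± 0.31), Pakap (-0.98 ± 0.16) and Slco2a1, a prostaglandin transporter (-0.97 ± 0.12). Pakap was not called on Cy5 alone (adjusted p = 0.13).

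For 7 mice there were 2 arrays under the same label, and in 2 of them the muscle signal differed between the arrays. Replicate 1 of the day 1 controls had Acta1 at 17.44 log2 Cy5 on its second array, in the muscle set, and 6.63 on its first. Krt13 was 16.28 on the second and 6.45 on the first. Replicate 1 of 54 µg at day 28, with both arrays in the muscle set, had Acta1 at 17.33 on the second and 13.51 on the first. Over all genes the arrays of these mice correlated at r = 0.815 and 0.878, and those of the other 5 mice at 0.959 to 0.967.

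List medians also moved between the arrays of these mice. They are medians over list members on each array, each gene first set against its mean on the other arrays. The second minus the first array gave 6.33 and 3.37 for the fast fibre list in the control and the 54 µg mouse, against -0.01 to 0.17 in the other 5 mice. For alveolar type I genes it gave -0.79 and -0.80, against -0.19 to -0.02. For mitochondrial genes it gave 1.23 and 0.95, against -0.21 to 0.17. The adipose list did not follow, at 3.48 and -1.97, against -0.84 to 3.97 in the other 5 mice. Whether the arrays of a mouse came from the same piece of lung was not tested.

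By dose, muscle arrays were found at day 1 for 4 of 4 mice at 0 µg, 1 of 3 at 18 µg, 1 of 3 at 54 µg and 1 of 4 at 162 µg. At day 28 they were found for 0 of 3 mice at 0 µg, 1 of 4 at 18 µg, 3 of 4 at 54 µg and 0 of 4 at 162 µg. In two-sided Fisher exact tests, treated against control mice gave 3 of 10 against 4 of 4 at day 1 (p = 0.0699, adjusted over 3 comparisons 0.21) and 4 of 12 against 0 of 3 at day 28 (adjusted p = 0.516). Day 28 against day 1 gave 4 of 15 against 7 of 14 (adjusted p = 0.395, exact). None of the 3 passed, with 3 or 4 controls at each day.

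**Figure D3:**
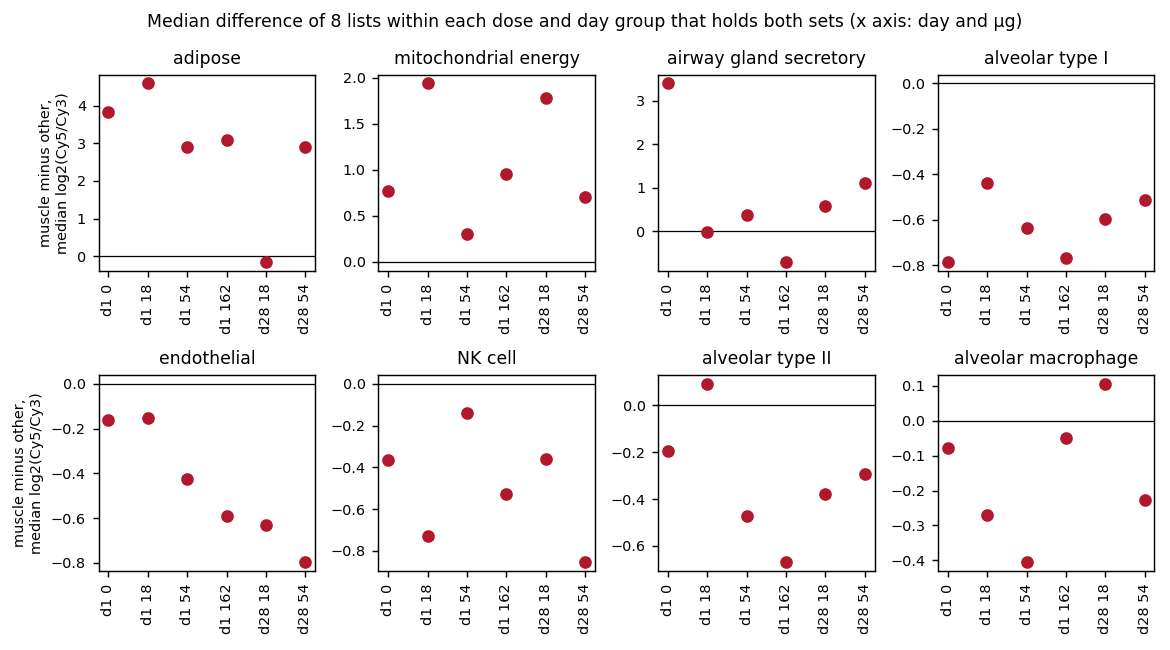
Median difference of 8 lists, muscle arrays minus other arrays, within each of the 6 dose and day groups that hold both sets (x axis: day and µg). Each group has only 1 array in 1 of the sets. Alveolar type I, endothelial and NK cell medians are below 0 in 6 of 6 groups. The adipose median is -0.15 in the 18 µg group of day 28.

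Of all probes, 53.55% ± 2.68 were well above background in Cy5 for 10 mice of the muscle set and 54.59% ± 2.81 for 18 mice of the other set (SD, adjusted p = 0.78, permutation test). Slides 1 to 5 held 1 of 7, 3 of 5, 4 of 8, 2 of 8 and 2 of 8 muscle arrays. The first principal component held 42.5% of the variance, with muscle arrays at 0.2 to 72 and other arrays at -32.9 to 9.9. In the reference channel, Acta1 lay between 9.05 and 10.85 log2 Cy3 on muscle arrays and between 8.22 and 9.12 on other arrays. Of 28 skeletal genes with Cy5 over 15 on some array, 24 were also higher in Cy3 (median 1.03). Of the other 47 skeletal genes, 38 were higher in Cy3 (median 0.11), against 9776 of all 24722 genes (median -0.02). The part of this in the log ratios was not tested.

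An interaction term tested whether the difference between the sets itself differed between day 28 and day 1. The day 28 difference rests on the 18 µg group (1 of 4 arrays in the muscle set) and the 54 µg group (4 of 5). The interaction was called for 2 of 24722 genes (0.00809%), and 2381 had an unadjusted p under 0.05. The difference for 5830454E08Rik was 1.57 at day 28 and 0.21 at day 1 (adjusted p = 0.00068). For an unnamed probe it was 1.30 at day 28 and -0.08 at day 1 (adjusted p = 0.016).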

How the data were processed

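Each array gave a scanner file of spot intensities, deposited as scanned with Agilent Feature Extraction 11.0.1.1 per the file headers, and the authors' deposited value table holds log2 ratios of the same arrays. Its columns correlated with the log ratios computed here at r = 0.986 to 0.997. Median foreground and background intensities were corrected with normexp (offset 50) and normalized by loess within array. Spots flagged as outliers and control spots were left out, spots of a probe were averaged, and the probe of highest mean signal stood for a gene. The 24722 genes tested were well above background in Cy5 on at least 8 of 36 arrays, and 15798 of them have a gene symbol. The fit used limma 3.58.1 in R 4.3.3, with a mean for each dose and day group, a term for the set and the mouse as a random block (correlation 0.034), and Benjamini-Hochberg adjustment. On simulated data with 200 genes changed 2-fold, 197 were recovered, with 9 false among 206 calls.

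The sets, the gene lists and the alternatives were chosen with earlier results of these data known. Named genes are Acta1 and Ckm, up to 4 per list by size of difference (by brightness for muscle lists) and 8 in each direction outside the lists. Those outside the lists were ranked among called genes with a symbol and the same direction in the 6 groups that hold both sets. Further list members were named after their values were seen. Per the labels, replicates of a group are different mice, and the 2 arrays of a mouse share its label. The number of arrays limits the precision. A mouse of the 162 µg group has labels that disagree on the day and was kept at day 28. Replicate numbers follow the order of deposition. Some genes that these rules select are not reported here.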

Additional observations from a re-analysis of the deposited data

Results flagged for a closer look

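Samples far from the others of their dose and day group were looked for in 65 groups of values, as the mean log2 Cy5 of each mouse, and 17 were found. Chance gives about 1 in 20 such groups for unrelated genes. The genes here include Acta1, which chose the arrays, and genes that vary with it, and the same mice recur. The count therefore cannot be set against that rate.

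At day 1, replicate 3 of 162 µg had Acta1 at 16.86 (the other mice 6.55 to 7.05), Ckm at 13.64, Myh4 at 12.01, Myh2 at 15.32 and Krt13 at 15.84. At day 28, replicate 1 of 18 µg had Acta1 at 17.94 (the others 6.49 to 6.75), Myh4 at 12.31 and Myh2 at 16.74. In the 54 µg group of day 28, replicate 4 was low where the others were high, with Ckm at 6.3 (12.32 to 13.25 in the others), Myh4 at 6.21 and Krt13 at 6.64. Replicate 4 of the day 1 controls had Ckm at 13.6, against 10.85 to 11.24 in the others. The 10.85 is the mean of replicate 1, which has an array in each set, with Ckm at 6.7 and 15. Its muscle array thus lay above replicate 4.

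Replicate 2 of 162 µg at day 28 had Krt13 at 6.86 (6.48 to 6.52 in the others) and Myh4 at 6.63 (6.23 to 6.29), all low values. Ucp1, of brown fat, was 13.08 in replicate 3 of 54 µg at day 28 and 6.29 to 6.51 in the others. Among the day 1 controls, Sftpc was 18.42 in replicate 1 (18.27 to 18.28 in the others) and Cldn5 was 13.39 in replicate 2 (14.56 to 14.66).

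The difference between muscle arrays and other arrays changed between the days by an interaction test for 5830454E08Rik (day 28 minus day 1, 1.36) and for an unnamed probe (1.38). In the reference channel, which holds no lung RNA, Acta1 had a median of 10.13 log2 Cy3 on muscle arrays and 8.7 on other arrays, and 11 of 12 muscle arrays lay above all other arrays.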

How the results depend on the processing

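Moving the Acta1 threshold to 9 or 11 gave the same sets. The number of genes called higher was 1530 with median centring, which moved the median of all genes to -0.133 and the share of calls that were higher to 30.9%, against 47.9%. The genes called lower numbered 4938 by the authors' deposited log ratios (34.4% of calls higher), and with processed signals 39% of calls were higher. Without the 8 arrays with squamous transcripts, 2890 genes were called, 1834 higher and 1056 lower (63.5% higher), and the alveolar macrophage median was 0, Krt4 -0.136 and Lor -0.426. This setting has fewer arrays, and its part in the loss was not tested. Krt4 and Lor vary with Krt13, which defines this setting and the next, so their values there support nothing. Chosen after seeing the data, Cy5 alone with a term for Krt13 over 10 gave 1925 called, 1449 higher and 476 lower (75.3% higher), with Krt4 at -0.112, Lor at -0.352 and Etv5 at 0.078. Also chosen after seeing the data, terms for the Adipoq and Myh6 levels gave 3079 called and 1051 lower (65.9% higher), and the medians of alveolar macrophage, fibroblast and fatty acid synthesis genes were 0.001, -0.04 and -0.092, with Adipoq at -0.016. Adipoq was itself a term, so its value was fixed in advance. With these terms, 5 of 9 type I, 2 of 14 endothelial and 1 of 10 NK cell genes were called lower, and 15 of 16 mitochondrial genes higher. With slide as a term, the interaction was called for 1 gene. Leaving out each mouse in turn gave 4701 to 6448 calls, 2438 to 3085 higher and 2263 to 3402 lower, the lowest of each without replicate 3 of 162 µg at day 1. With the mouse of conflicting labels at day 1, the day 1 Fisher test gave an adjusted p of 0.0769. No paired analysis was possible because the labels give no replicate numbers shared between groups (numbers were given in the order of deposition). Levels of probes not well above background are not measured, so no fold is given against them.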
